A study of Danio rerio with 16 samples.

Results

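The genes described are 10 genes known for their expression in the zebrafish pancreas, chosen by name and found in the count table by their symbol: the hormone genes *ins* and *gcga*, the transcription factor genes *pdx1* and *ptf1a*, and the digestive enzyme genes *prss1*, *prss59.1*, *prss59.2*, *ctrb1*, *ela2l*, and *cpa1*. All 10 were among the 32520 genes of the table, and 8 of them were among the 23555 genes with enough reads to be tested. The other members, *prss59.2* and *ctrb1*, had too few reads and are given as counts.

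RNA was sequenced from pools of 10 whole zebrafish embryos at 1 and 2 days post fertilization (dpf), to ask which genes differ in the mutant around the onset of its heart and vessel defects. WT embryos (genotype fbn2b +/+ in the labels) were compared with homozygous *fbn3* mutants (*fbn3*-/-, fbn2b -/- in the labels), which carry a frameshift deletion in a gene of the extracellular matrix protein fibrillin. The groups were WT at 1 dpf (n = 4 libraries), *fbn3*-/- at 1 dpf (n = 3), WT at 2 dpf (n = 3), and *fbn3*-/- at 2 dpf (n = 5), and the labels call the libraries of a group biological replicates. The mutant is 1 line, no other treatment is named, and embryos with mild and severe defects are not told apart in the labels.

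The pancreas arises from the endoderm of the foregut. In zebrafish, a dorsal bud gives the first hormone-producing cells, which gather in a single islet, and a ventral bud gives the acinar cells, which make digestive enzymes, and further endocrine cells. The factor encoded by *pdx1* marks the pancreatic and duodenal endoderm and later the beta cells, and *ptf1a* directs the acinar fate. Outside the pancreas, *ptf1a* is expressed in neurons of the hindbrain, spinal cord, and retina, so that in a whole embryo its reads come from several tissues.

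Depth and labels were checked first. Total counts ranged from 41473603 to 77233445 in WT and from 66070904 to 101620834 in *fbn3*-/- at 1 dpf, and from 87748238 to 134038214 in WT and from 52451122 to 179887580 in *fbn3*-/- at 2 dpf. The mutated gene, *fbn2b* in the table, had 102.8 to 336.9 CPM (counts relative to the library total, scaled with TMM) in the WT libraries at 1 dpf and 19.49 to 28.74 in *fbn3*-/-, and 163.5 to 239.2 against 15.09 to 20.75 CPM at 2 dpf, so that no library went against its genotype label. The libraries were also divided by the number in their name into a lower-numbered set of 9 and a higher-numbered set of 6. No label names such sets, the cut lies between consecutive numbers, and it was taken from earlier results of these counts, in which the libraries separated there. All 3 *fbn3*-/- libraries at 1 dpf are of the lower-numbered set, as are 2 of 4 WT libraries at 1 dpf, 1 of 3 WT libraries at 2 dpf, and 3 of 5 *fbn3*-/- libraries at 2 dpf. A score placed each library between the mean of WT at 1 dpf (0) and at 2 dpf (1) over 500 genes. These genes were picked because they differed most clearly between the WT stages in these same libraries. The WT scores near 0 and 1 are thus set by construction and are no check of the WT labels. In WT, they ranged from -0.043 to 0.062 at 1 dpf and from 0.952 to 1.03 at 2 dpf. In *fbn3*-/-, the scores ranged from -0.094 to 0.046 at 1 dpf and from 0.899 to 1.05 at 2 dpf.

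From 1 to 2 dpf, the glucagon gene *gcga* and the acinar factor gene *ptf1a* rose in both genotypes. The insulin gene *ins* passed the FDR threshold in both genotypes and the fold change threshold in *fbn3*-/-, and the difference between its changes was not called (edgeR FDR of the interaction 0.892). The trypsin gene *prss1* was called in *fbn3*-/-, a call that depends on 1 library, and the other digestive enzyme genes tested were not called. A gene was called at FDR under 0.05 and absolute log2 fold change (log2FC) above 1 (edgeR, quasi-likelihood method). In WT, 2 of the 8 members tested were called higher at 2 dpf (*gcga* and *ptf1a*), where 17.7% of all genes tested were called higher, and 0 were called lower, where 9.4% of all genes were. In *fbn3*-/-, 4 of 8 were called higher (*gcga*, *ptf1a*, *ins*, and *prss1*), where 19.3% of all genes were, and 0 lower, where 8.36% were. By FDR alone, 3 of 8 members passed in WT and 4 of 8 in *fbn3*-/-, against 54.6% and 56.3% of all genes tested. The median log2FC of the 8 members was 0.72 in WT and 1.33 in *fbn3*-/-, against -0.04 and 0.00 over all genes tested. In whole embryos, fewer cells of a type and less RNA per cell cannot be told apart.

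Glucagon, the hormone of the alpha cells that raises blood glucose, is encoded by *gcga*. At 1 dpf, *gcga* had 0.262, 0.369, 0.0831, and 0.169 CPM in the WT libraries, from 6 to 27 counts, and 0.179, 0.199, and 0.0897 CPM in the *fbn3*-/- libraries. At 2 dpf, it had 1.44, 1.29, and 1.79 CPM in WT and 2.24, 2.11, 1.81, 1.36, and 2.74 CPM in *fbn3*-/-. Every library at 2 dpf was above every library at 1 dpf. The log2FC between the stages was 2.76 in WT (SE 0.38, FDR 2.097e-05), a 6.76-fold rise (95% interval 3.86 to 11.9), and 3.76 in *fbn3*-/- (SE 0.40, FDR 1.404e-06), a 13.5-fold rise (7.52 to 24.3). The difference between these rises was 1.00 on the log2 scale (SE 0.66, FDR 0.893) and was not called. In WT, the log2FC was 2.14 within the lower-numbered libraries (1 at 2 dpf against 2 at 1 dpf) and 3.74 within the higher-numbered ones (2 against 2), with 0.262 and 0.369 CPM at 1 dpf in the former and 0.0831 and 0.169 in the latter.

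Insulin, the hormone of the beta cells, is encoded by *ins*. Its levels at 1 dpf were 5.81, 3.98, 4.43, and 3.05 CPM in WT and 2.96, 3.18, and 2.47 CPM in *fbn3*-/-. At 2 dpf, they were 7.74, 8.30, and 9.71 CPM in WT and 6.14, 8.54, 8.40, 6.71, and 8.74 CPM in *fbn3*-/-. The stages did not overlap in either genotype. The log2FC was 1.43 in *fbn3*-/- (SE 0.19, FDR 1.449e-05) and 0.99 in WT (SE 0.19, FDR 0.0003564), where the FDR passed and the fold change lay just under the threshold. In WT, 11 of the 24 other settings placed *ins* past both thresholds, with log2FC between 0.87 and 1.17 over all 24. Within the lower-numbered WT libraries (1 at 2 dpf against 2 at 1 dpf) the log2FC was 0.68, and within the higher-numbered ones (2 against 2) it was 1.25.

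The acinar fate factor gene *ptf1a* had 3.06, 2.41, 4.46, and 2.42 CPM in WT and 3.04, 1.80, and 2.04 CPM in *fbn3*-/- at 1 dpf. At 2 dpf, it had 6.56, 6.97, and 7.51 CPM in WT and 6.0, 6.26, 6.52, 6.70, and 5.63 CPM in *fbn3*-/-. All libraries at 2 dpf were above all at 1 dpf, with a log2FC of 1.17 in WT (SE 0.20, FDR 0.0001604) and 1.45 in *fbn3*-/- (SE 0.21, FDR 2.475e-05). Within the lower-numbered and higher-numbered libraries, the WT log2FC was 1.28 (1 against 2 libraries) and 1.03 (2 against 2). Of 14 genes of the neural tissues that also express *ptf1a*, 9 were called higher and 1 lower at 2 dpf in WT, where 17.7% and 9.4% of all genes tested were, and the median log2FC was 1.56. In *fbn3*-/-, 8 were called higher and 2 lower, where 19.3% and 8.36% of all genes were. The gene called lower in WT was *olig3* (log2FC -1.48), a neural progenitor factor gene singled out after its value was seen. Their summed level ranged from 412.5 to 474.7 CPM in WT at 1 dpf and from 853 to 985.6 CPM at 2 dpf, none was absent, and their part in the rise of *ptf1a* was not tested.

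The level of *pdx1*, the foregut and beta cell factor gene, was not called in any comparison. It was 2.40, 2.68, 2.26, and 1.02 CPM in WT at 1 dpf, 1.85, 1.56, and 2.16 CPM in *fbn3*-/- at 1 dpf, 2.33, 2.61, and 2.11 CPM in WT at 2 dpf, and 2.33, 2.36, 2.7, 2.18, and 2.10 CPM in *fbn3*-/- at 2 dpf. The groups overlapped at every comparison, and WT replicate 5 at 1 dpf, with 42 counts, was the lowest of all libraries. The log2FC between the stages was 0.13 in WT (95% interval -0.36 to 0.61, FDR 0.659) and 0.31 in *fbn3*-/- (-0.17 to 0.78, FDR 0.251).

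**Figure D1:**
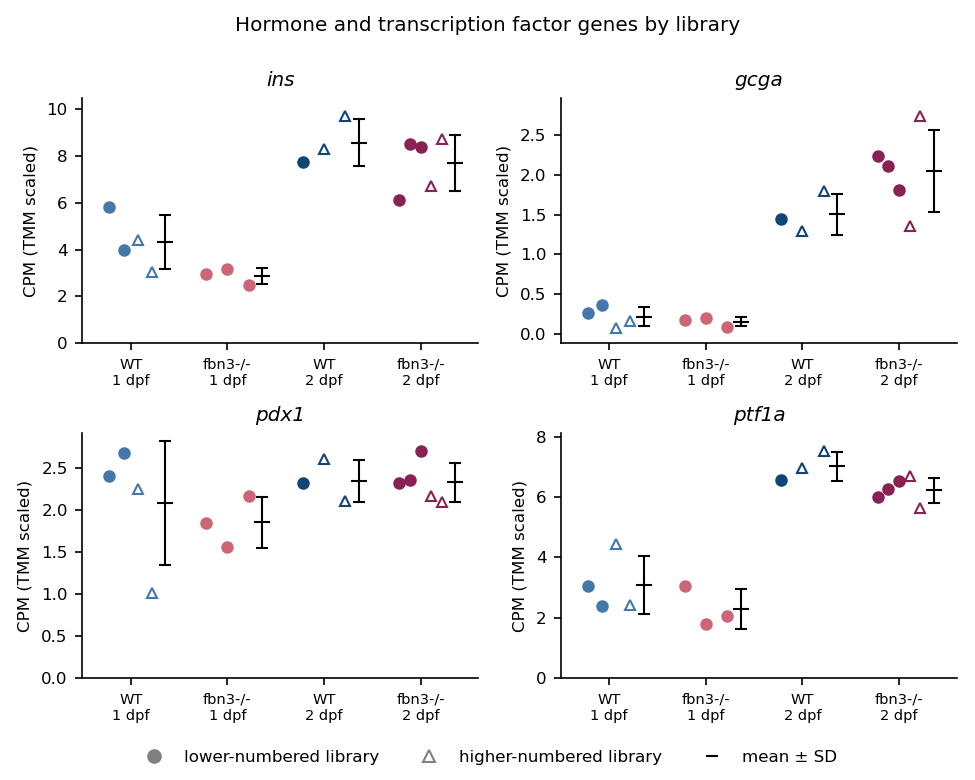
Level of the hormone genes *ins* and *gcga* and of the transcription factor genes *pdx1* and *ptf1a* in each library, in CPM scaled with TMM, by genotype and stage (filled circles, lower-numbered libraries; open triangles, higher-numbered libraries; bars, mean ± SD). Libraries at 2 dpf sit above those at 1 dpf for *ins*, *gcga*, and *ptf1a* and overlap for *pdx1*.

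Among the digestive enzyme genes, *prss1*, a trypsin gene, had the lowest FDR between stages. It had 0.634, 0.684, 0.706, and 0.532 CPM in WT and 0.536, 0.535, and 0.419 CPM in *fbn3*-/- at 1 dpf. At 2 dpf, it had 0.922, 1.21, and 1.04 CPM in WT and 2.06, 0.925, 1.26, 0.861, and 0.914 CPM in *fbn3*-/-. The stages did not overlap in either genotype. The log2FC was 0.70 in WT (SE 0.30, FDR 0.0627; exact permutation test, 2-sided, p = 0.0286, the smallest that 4 against 3 libraries allow) and 1.23 in *fbn3*-/- (SE 0.31, FDR 0.003002). Without *fbn3*-/- replicate 1 at 2 dpf, the highest library, the latter was 0.99 (FDR 0.00228), just under the fold change threshold. Between the WT stages, the exact permutation test also gave p = 0.0286 for *gcga* and p = 0.0571 for *ins* and for *ptf1a*. For *pdx1*, *prss59.1*, *ela2l*, and *cpa1*, that test gave p from 0.457 to 0.857. Counting members whose stages did not overlap, there were 4 of 8 in WT, against 49.7% of all genes tested, and 5 of 8 in *fbn3*-/-, against 56.3%.

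The elastase gene *ela2l* had 1.33, 0.561, 0.872, and 2.40 CPM in WT and 1.52, 1.47, and 1.04 CPM in *fbn3*-/- at 1 dpf, and 1.80, 0.821, and 2.80 CPM in WT and 1.54, 2.14, 1.93, 2.44, and 1.64 CPM in *fbn3*-/- at 2 dpf. The WT libraries overlapped between stages, and the *fbn3*-/- libraries at 2 dpf all lay above those at 1 dpf, by a narrow margin. The log2FC was 0.63 in WT (95% interval -0.26 to 1.52, FDR 0.218) and 0.58 in *fbn3*-/- (-0.25 to 1.42, FDR 0.220). Without WT replicate 5 at 1 dpf or without WT replicate 2 at 2 dpf, the WT value was 1.07 (edgeR FDR 0.0397) or 1.01 (FDR 0.0450) and was called. Over all 15 fits with 1 library left out, the WT value ranged from 0.12 to 1.07, so that 1 library can move this result either way.

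The carboxypeptidase gene *cpa1* had 3 to 25 counts per library. Its levels were 0.0874, 0.0957, 0.0969, and 0.315 CPM in WT and 0.0595, 0.153, and 0.120 CPM in *fbn3*-/- at 1 dpf, and 0.0806, 0.114, and 0.107 CPM in WT and 0.142, 0.0829, 0.110, 0.136, and 0.0403 CPM in *fbn3*-/- at 2 dpf. All groups overlapped, and the highest value, in WT replicate 5 at 1 dpf, rested on 13 counts. The log2FC between stages was -0.39 in WT (95% interval -1.45 to 0.66, FDR 0.524) and -0.05 in *fbn3*-/- (-1.07 to 0.97, FDR 0.937).

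The chymotrypsinogen gene *ctrb1* was close to the limit of detection. It had 1, 2, 0, and 0 counts in WT and 0, 0, and 0 counts in *fbn3*-/- at 1 dpf, and 1, 7, and 15 counts in WT and 8, 1, 2, 6, and 2 counts in *fbn3*-/- at 2 dpf. In *fbn3*-/-, every library at 2 dpf had reads and none at 1 dpf had (exact permutation test on log2 CPM, 2-sided, p = 0.0179, the smallest that 5 against 3 libraries allow). Over all genes tested, 56.3% did not overlap between these groups. The 19 pooled counts at 2 dpf, 8 of them in replicate 1, gave 3.21-fold the level of 3 counts over the group at 1 dpf. That value takes a fixed floor and includes neither counting error nor the spread between libraries. In WT, 23 counts stood against 3, a ratio of 5.51 relative to the TMM-scaled totals (exact 95% interval 1.67 to 28.7, for counting error only), and the libraries overlapped. Fitted without the filter on low counts, the *fbn3*-/- difference had an edgeR FDR of 0.0471 and the WT difference 0.0854.

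**Figure D2:**
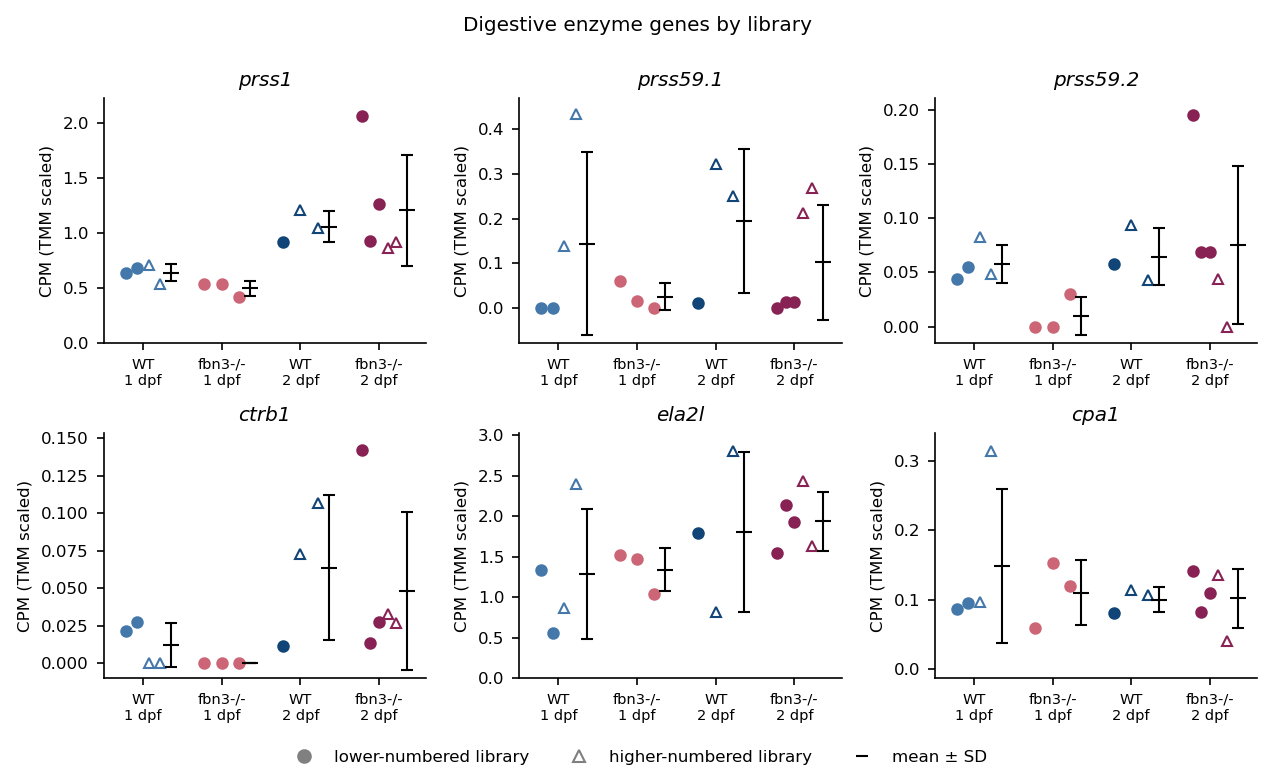
Level of the 6 digestive enzyme genes in each library, in CPM scaled with TMM, by genotype and stage (filled circles, lower-numbered libraries; open triangles, higher-numbered libraries; bars, mean ± SD). For *prss59.1*, all 6 higher-numbered libraries lie above all 9 lower-numbered ones in every group that has both, and for *prss1* the stages do not overlap.

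The counts of the trypsin-like gene *prss59.1* split between lower-numbered and higher-numbered libraries in each group that has both, a pattern noticed after its values were seen and given as a description. It had 0 and 0 counts in the lower-numbered and 10 and 18 in the higher-numbered WT libraries at 1 dpf, and 4, 1, and 0 counts in *fbn3*-/- at 1 dpf, all lower-numbered. At 2 dpf, it had 1 count in the lower-numbered and 31 and 35 in the higher-numbered WT libraries, and 0, 1, and 1 counts in the lower-numbered and 39 and 20 in the higher-numbered *fbn3*-/- libraries. The 6 higher-numbered libraries thus held 153 counts and the 9 lower-numbered ones 8, a ratio of 20.1 relative to the TMM-scaled totals. Of all genes tested, 0.658% had all higher-numbered above all lower-numbered libraries. With the group in the fit, the difference of the higher-numbered from the lower-numbered libraries was 4.81 on the log2 scale for *prss59.1* and -0.26 to 0.36 for the other 7 members tested.

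Its neighbour *prss59.2*, which lies next to *prss59.1* in the RefSeq annotation of assembly GRCz12tu, did not show this split. It had 2, 4, 6, and 2 counts in WT and 0, 0, and 3 counts in *fbn3*-/- at 1 dpf, and 5, 9, and 6 counts in WT and 11, 5, 5, 8, and 0 counts in *fbn3*-/- at 2 dpf. The higher-numbered libraries held 31 and the lower-numbered 35 of these counts. The trypsin genes are related in sequence, as are *ela2l* and its neighbour *ela2* and *cpa1* and its neighbour *cpa5*, and how reads that fit more than 1 copy were counted is not given in the sources used here, so the split of reads between them is uncertain.

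Pancreas genes were also described from lists of exocrine, endocrine, and progenitor genes. The lists include the members, so their counts are not separate from those above. Of 31 exocrine genes listed, 24 were in the count table and 14 had enough reads to be tested. Of these 14, 1 was called higher and 3 lower at 2 dpf in WT, where 17.7% and 9.4% of all genes tested were. The median log2FC was 0.25. In *fbn3*-/-, 2 were called higher (*cpa5* and the member *prss1*) and 3 lower, where 19.3% and 8.36% of all genes were. The carboxypeptidase gene *cpa5* went from 0.226 ± 0.147 CPM (SD, n = 4) at 1 dpf to 5.27 ± 1.30 CPM (SD, n = 3) at 2 dpf in WT, a log2FC of 4.57 (SE 0.43, edgeR FDR 4.442e-07), where *cpa1* beside it had -0.39. The genes called lower were *bhlha15* (log2FC -3.00), a transcription factor gene of secretory cells, *cel.1* (-2.08), a lipase gene, and *amy2a* (-1.56), an amylase gene. The nuclear receptor gene *nr5a2* had a log2FC of 0.99 and was not called.

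Of 31 genes tested from the endocrine list, 11 were called higher and 3 lower in WT, where 17.7% and 9.4% of all genes tested were. In *fbn3*-/-, 12 were called higher and 3 lower, where 19.3% and 8.36% of all genes were. The largest rises in WT were those of *gcga*, *sox4b* (log2FC 2.32), and *neurod1* (2.01). Both of the latter encode transcription factors that are also made in neurons. The summed level of the list was 488.6 to 581.8 CPM in WT at 1 dpf, of which *ins* gave 3.05 to 5.81 CPM. In whole embryos, the tissues that these reads come from were not told apart, so the calls do not describe the pancreas alone. The other hormone genes of the list that were tested, singled out after their values were seen, divided: *gcgb*, a second glucagon gene, rose by 1.81 and the somatostatin gene *sst1.1* by 1.69 on the log2 scale in WT (edgeR FDR 2.723e-05 and 3.037e-05), *insb*, a second insulin gene, fell by 1.48 (FDR 0.004789), and *sst1.2* (-0.22) and *sst2* (-0.45) were not called. The transcription factor genes *rfx6* (-2.97) and *pax4* (-1.88), which act early in endocrine cells, were called lower.

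Of 22 genes of the foregut and of pancreas progenitors, 2 were called higher and 2 lower in WT, where 17.7% and 9.4% of all genes were. In *fbn3*-/-, 3 were called higher and 1 lower, where 19.3% and 8.36% of all genes were. Beside *ptf1a*, the intestinal factor gene *cdx1b* was called higher in WT (log2FC 4.02), and *prox1a* (0.97) was not called. The endoderm factor gene *hhex* (-1.08) and the Notch ligand gene *jag2b* (-1.03) were called lower, and *gata5* (-0.87) was not.

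Genes listed for neighbouring organs and for the yolk were called in the same interval. Of 13 liver genes, 5 were called higher and 0 lower in WT, of 8 intestine genes 3 higher and 2 lower, and of 9 yolk genes 2 higher and 2 lower. Over all genes tested, 17.7% were called higher and 9.4% lower in WT. The summed level of the liver list ranged from 3488 to 4491 CPM at 1 dpf and from 4221 to 5121 CPM at 2 dpf in WT. That of the intestine list ranged from 4033 to 4910 and from 3699 to 4896 CPM, and that of the yolk list from 8988 to 10870 and from 9569 to 12490 CPM. Few genes carry these sums: *apoa2* and *tfa* had means of 1550 and 1348 CPM and *apoa1a* of 3545 CPM in WT at 1 dpf. The sums therefore do not show changes of genes at low level. In WT, *fabp10a* rose from 0.0189 to 0.990 CPM, *vil1* from 0.707 to 3.33, and *cdx1b* from 0.202 to 3.79, and *fabp2* fell from 456 to 114.5 CPM. The *fabp10a* mean at 1 dpf lay under the level of 3 counts in a WT library at that stage (0.0410 to 0.0726 CPM). The tissues that the reads of these lists come from were not told apart, so the calls and sums do not describe the named organs alone. The count table holds 14 of the 16 liver genes listed. No gene of these lists that it holds was absent from all libraries, and the part of these genes in the members' values was not tested.

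**Figure D3:**
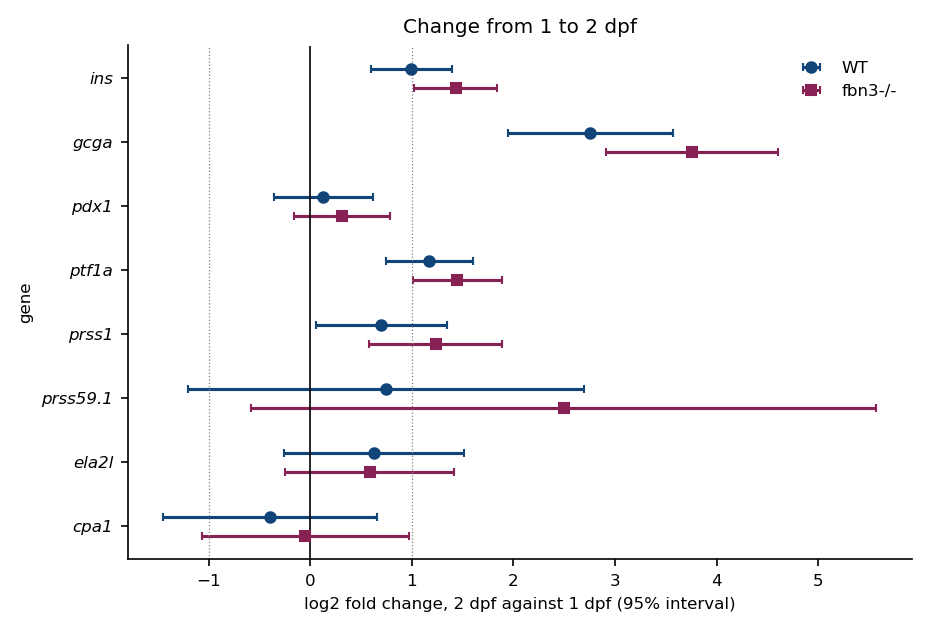
Log2 fold change from 1 to 2 dpf of the 8 members tested, in WT (circles) and *fbn3*-/- (squares), with 95% intervals from edgeR's quasi-likelihood fit and dotted lines at the fold change threshold. The interval of *gcga* lies above the threshold in both genotypes, and those of *pdx1*, *prss59.1*, *ela2l*, and *cpa1* include 0.

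**Figure D4:**
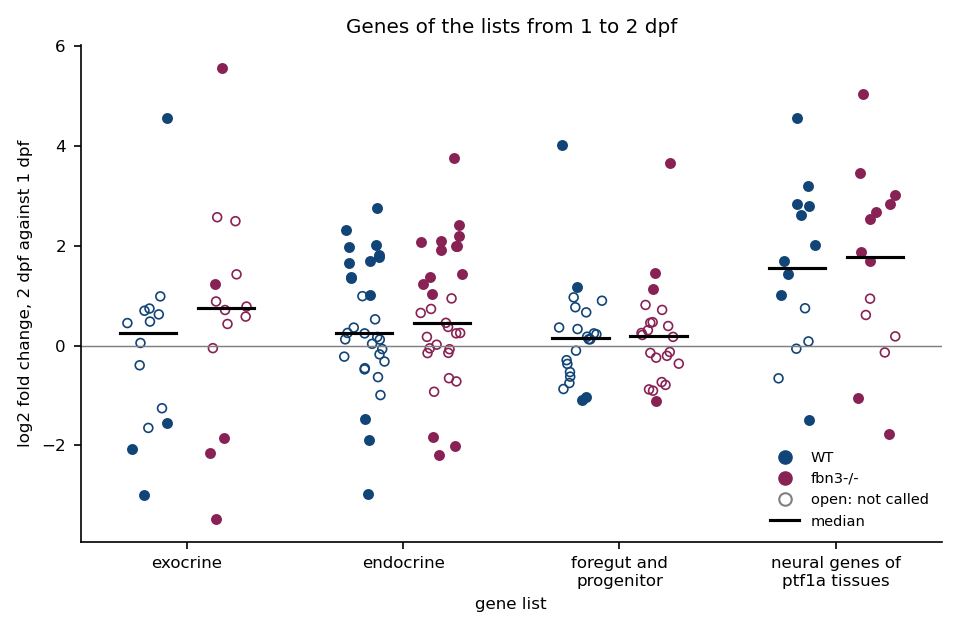
Log2 fold change from 1 to 2 dpf of the tested genes of the exocrine, endocrine, and progenitor lists and of the neural genes of tissues that express *ptf1a*, in WT and *fbn3*-/- (filled, called; open, not called; bars, medians). The medians in WT are 0.25, 0.25, 0.15, and 1.56.

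Between genotypes, no member was called at either stage. At 1 dpf, 0 of the 8 members tested were called (edgeR), where 0.00425% of all genes tested were, which is *fbn2b* alone, and 1 member, *ins*, had an unadjusted p under 0.05, where 7.34% of genes did. At 2 dpf, 0 of 8 were called, where 0.178% of all genes were, and 0 had an unadjusted p under 0.05, where 10.4% of genes did. The other tests gave 0 members called at both stages too, including DESeq2 and the likelihood ratio test. The median log2FC of the 8 members was -0.43 at 1 dpf and 0.03 at 2 dpf, against -0.03 and 0.01 over all genes tested. The interaction of genotype and stage was called for 0 of 8 members (0.00425% of all genes), and 0 had an unadjusted p under 0.05, where 5.51% of genes did.

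At 1 dpf, the gene with the lowest p among the members was *ins*, which was lower in *fbn3*-/- by a log2FC of -0.60 (95% interval -1.03 to -0.16, unadjusted p = 0.01035, edgeR FDR 0.611). Of its 3 *fbn3*-/- libraries, 2 were below all 4 WT libraries, and *fbn3*-/- replicate 2 was above WT replicate 5, so the groups overlapped (exact permutation test, 2-sided, p = 0.0857). Among the lower-numbered libraries alone, 3 *fbn3*-/- against 2 WT, the log2FC was -0.76 (edgeR FDR 0.257). At 2 dpf, the *ins* log2FC was -0.16 (-0.53 to 0.21, FDR 0.785), with 2 of 5 *fbn3*-/- libraries below all 3 WT libraries.

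The other hormone and factor genes overlapped between genotypes. The log2FC of *ptf1a* was -0.45 (95% interval -0.92 to 0.02, edgeR FDR 0.684) at 1 dpf and -0.17 (-0.56 to 0.21, FDR 0.782) at 2 dpf, where 4 of 5 mutant libraries lay under the lowest WT library (p = 0.0536, 2-sided exact permutation test). That of *gcga* was -0.60 (-1.89 to 0.69, FDR 0.845) at 1 dpf and 0.40 (-0.13 to 0.92, FDR 0.598) at 2 dpf, where 4 of 5 mutant libraries lay over the highest WT library (exact permutation p = 0.161). That of *pdx1* was -0.19 (-0.70 to 0.32) and -0.01 (-0.46 to 0.44). For *pdx1*, *ins*, and *ptf1a* at 2 dpf, the intervals lay inside a log2FC of -1 to 1, and so did that of *gcga*.

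Among the enzyme genes, *prss1* had a log2FC of -0.41 (95% interval -1.18 to 0.36) at 1 dpf and 0.12 (-0.42 to 0.66) at 2 dpf. The values of *ela2l* were 0.14 (-0.82 to 1.1) and 0.10 (-0.66 to 0.86), and those of *cpa1* were -0.27 (-1.38 to 0.84) and 0.08 (-0.87 to 1.02). The *prss59.1* values of -2.42 (-5.86 to 1.02) and -0.67 (-2.29 to 0.95) compare groups that differ in their share of higher-numbered libraries. With the set of library numbers in the fit, the 1 dpf value was 1.40 (edgeR FDR 0.8995) and was not called. The lower-numbered libraries at 1 dpf hold 4, 1, and 0 counts in *fbn3*-/- and 0 and 0 in WT, so its direction is uncertain. At 1 dpf, genotype and set cannot be told apart for the higher-numbered libraries, which are all WT.

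The counts of *prss59.2* at 1 dpf did not overlap between genotypes on the CPM scale, with 0.0437, 0.0547, 0.0831, and 0.0484 CPM in WT and 0, 0, and 0.0299 CPM in *fbn3*-/- (exact permutation test, 2-sided, p = 0.0286, the smallest that the design allows). Fitted without the filter on low counts, the log2FC was -2.08 (SE 1.18, edgeR FDR 0.803). Over all genes tested, 5.88% did not overlap at 1 dpf and 6.19% at 2 dpf. The pooled counts were 3 in *fbn3*-/- and 14 in WT, a ratio of 0.214 relative to the TMM-scaled totals (exact 95% interval 0.0394 to 0.766, for counting error only). At 2 dpf, the 5 *fbn3*-/- libraries spanned 0 to 11 counts and the WT libraries 5 to 9, and the groups overlapped. Among the 8 members that were tested, 0 did not overlap between genotypes at either stage.

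**Figure D5:**
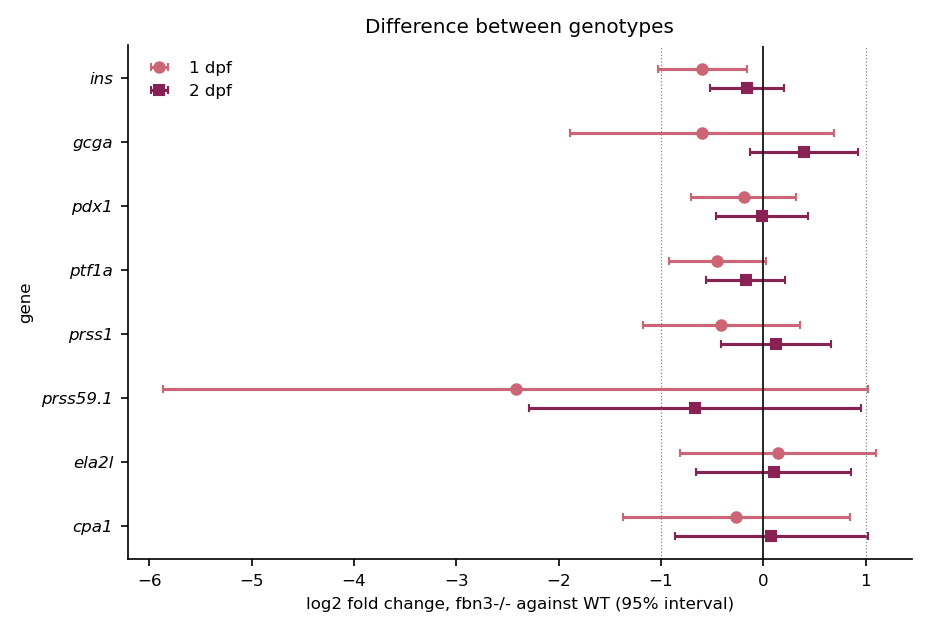
Log2 fold change of *fbn3*-/- against WT at 1 dpf (circles) and 2 dpf (squares) for the 8 members tested, with 95% intervals from edgeR's quasi-likelihood fit and dotted lines at the fold change threshold. Every interval includes 0 except that of *ins* at 1 dpf, whose FDR was 0.611.

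The lists, which include the members, gave 0 genes called between genotypes at either stage (edgeR). They held 14 exocrine, 31 endocrine, and 22 progenitor genes tested, and 0.00425% and 0.178% of all genes were called at 1 and 2 dpf. At 1 dpf, 0, 3, and 3 genes had an unadjusted p under 0.05, where 7.34% of all genes did. At 2 dpf, 1, 3, and 2 did, where 10.4% of all genes did. The median log2FC at 1 dpf was -0.29 for the exocrine, -0.23 for the endocrine, and -0.11 for the progenitor genes, and at 2 dpf it was 0.08, -0.13, and -0.10. Lower in *fbn3*-/- at 1 and 2 dpf were 9 and 5 of the 14 exocrine, 26 and 22 of the 31 endocrine, and 15 and 16 of the 22 progenitor genes. The share of all genes that were lower was not counted. Of the 14 neural genes, 11 were lower in *fbn3*-/- at 1 dpf and 11 at 2 dpf, and 0 were called. These were not all the same genes: *gad1b* and *gad2* were lower at 1 dpf only, and *atoh1a* and *olig3* at 2 dpf only. Their medians were -0.26 and -0.18, against -0.03 and 0.01 over all genes tested.

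The members varied among themselves after the mean of each group was subtracted. Over 15 libraries, Pearson's r between 2 members ranged from -0.73 (*pdx1* and *ela2l*) to 0.43 (*pdx1* and *ins*). The r of the enzyme genes among themselves ranged from -0.38 (*prss1* and *ela2l*) to 0.38 (*ela2l* and *cpa1*). The libraries differ in depth and in their set of numbers, which all genes of a library share, and r can reflect either. In *fbn3*-/- at 2 dpf, replicate 1 had the highest level of *prss1*, *prss59.2*, *ctrb1*, and *cpa1* of the 5 libraries. It had the lowest of *ins*, *ela2l*, and *prss59.1* (0 counts), and neither for *gcga*, *ptf1a*, and *pdx1*. Its *cpa1* value (0.142 CPM, from 8 counts) was close to that of replicate 4 (0.136 CPM, from 25 counts).

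Genes most like the mean of the 4 enzyme genes tested, over the same 15 libraries, were *znf384l* (r = 0.94, rho = 0.91), *hps1* (r = 0.93), *best1* (r = 0.92), *rspo3* (r = 0.92), *BX511246.1* (r = 0.91), *ankrd44* (r = 0.91), and *CABZ01102115.1* (r = 0.91). Of these, *znf384l*, *best1*, and *BX511246.1* differed between the higher-numbered and the lower-numbered libraries by 0.61, 1.88, and 5.77 on the log2 scale, in the direction of *prss59.1*. The mean of the 4 enzyme genes was not scaled by gene, so genes with a wider spread weigh more in it. Between the sets, *prss59.1* differed by 4.81 on the log2 scale, and *prss1*, *ela2l*, and *cpa1* by -0.26, 0.28, and 0.36. Likeness to this mean is therefore not likeness to each enzyme gene. The genes most like *ins* were *CABZ01059119.1* (r = 0.94, rho = 0.89), *zgc:55262* (r = 0.91), *p2ry12* (r = 0.87), *si:dkey-277m11.2* (r = 0.87), and *tnni4b.2* (r = 0.86). With 23555 genes searched, such values are a description of these libraries.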

How the data were processed

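Each library was prepared from the total RNA of 10 pooled whole embryos with a stranded kit. The submitters' processing notes name FastQC 0.11.9, Trim Galore 0.6.6, STAR 2.7.6a, featureCounts (Subread 2.0.0), and assembly GRCz11. The authors deposited read counts per gene without normalization. The strand setting and the treatment of multiply mapped reads are not given in the sources used here. Of 23 count columns, 15 carried the library name of a listed sample and were kept, and 8 did not. WT replicate 3 at 1 dpf had no such column and was not analysed here. The paper's *fbn3* is the table's *fbn2b*.

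The fit used edgeR 4.0.16 in R 4.3.3, with filterByExpr (count minimum 10, total minimum 15), TMM scaling, 1 coefficient for each of the 4 groups, and the quasi-likelihood method with legacy set to FALSE. P-values were adjusted by Benjamini-Hochberg over the 23555 genes tested in each contrast. CPM are not per length, so the levels of different genes are not on 1 scale. The summed levels of the lists, and the part of single genes in them, depend on gene length too. Exact permutation tests were on log2 CPM (prior count 2). They were planned for the comparisons of genotypes, and those between stages were added. Groups at 0 were compared with a floor of 3 counts over the group. The members and gene lists were chosen with earlier results of these data known, and give no independent support to those results. Named were all members, list genes called between genotypes, the 3 largest rises and falls of each list between stages in WT, and the 8 and 5 genes most like the enzyme genes and *ins*, some of which are not reported here. Alternatives were RLE scaling, DESeq2 1.42.0, the likelihood ratio test, no low-count filter, a minimum CPM of 1 in 3 or more libraries, fits of the compared groups alone, the set of library numbers as covariate, a replicate block, and leaving out each library. The legacy quasi-likelihood method and the values within each set were added after the data were seen. Data were simulated for 23555 genes and the 2 dpf comparison of genotypes, with spreads from edgeR's trend. Genes were counted there at FDR under 0.05 alone, without the fold change threshold. Of 200 changed genes, 171 were recovered, and 31 of 202 genes that passed (15.3%) were false, against 8 of 173 (4.62%) by the legacy method. The false share among genes past both thresholds was not computed. Figures were drawn with matplotlib 3.10.9 in Python 3.11.15.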

Additional observations from a re-analysis of the deposited data

Results flagged for a closer look

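In groups of 4 or 5 libraries, 24 sets of values (each member, *fbn2b*, and the total counts) were checked for 1 library far from the others, with a rule under which chance picks about 1 in 20. For *cpa1* in WT at 1 dpf, replicate 5 had 0.315 CPM (0.3146, from 13 counts), and the other 3 libraries had 0.0874 to 0.0969 CPM. For *ctrb1* in *fbn3*-/- at 2 dpf, replicate 1 had 0.142 CPM, from 8 counts, and the other 4 libraries had 0.0138 to 0.0327 CPM. The total count of *fbn3*-/- replicate 4 at 2 dpf was 179887580, and those of the other 4 libraries were 52451122 to 73893435. In that library, *ins*, *gcga*, and *ptf1a* had 6.71, 1.36, and 6.70 CPM, of which the *gcga* value was the lowest and the *ptf1a* value the highest of its group.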

How the results depend on the processing

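Between genotypes and in the interaction, 0 members were called under any of the other settings (24 between genotypes, 23 for the interaction, which has no fit of the compared groups alone). From 1 to 2 dpf, 2 to 4 members were called in WT and 3 to 5 in *fbn3*-/-, and the WT count of 2 reached 4 without WT replicate 2 at 2 dpf (leave-one-out range 2 to 4). Directions turned only for values that were not called. For *prss59.1*, the log2FC with the set of library numbers in the fit was 1.40 between genotypes at 1 dpf, -1.45 between stages in *fbn3*-/-, and -1.67 for the interaction. The edgeR FDR of these values was 0.8995, 0.3811, and 0.8509. For the interaction of *ela2l*, DESeq2 gave 0.020, the likelihood ratio test 0.034, and the legacy method 0.029. With single libraries left out, the log2FC of *cpa1* ranged from -0.49 to 0.24 (genotype, 1 dpf), -0.17 to 0.23 (genotype, 2 dpf), -0.57 to 0.11 (stage, WT), -0.30 to 0.18 (stage, *fbn3*-/-), and -0.16 to 0.57 (interaction), that of *ela2l* from -0.15 to 0.58 and -0.27 to 0.61 (genotype, 1 and 2 dpf) and -0.48 to 0.46 (interaction), that of *pdx1* from -0.090 to 0.042 (genotype, 2 dpf) and -0.067 to 0.275 (stage, WT), and that of *prss1* from -0.12 to 0.26 (genotype, 2 dpf). The causes were not tested.

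Whether the replicate numbers pair the samples cannot be decided from groups this small, and the main fit did not pair them. The paper calls the WT and mutant embryos siblings and does not state which libraries share parents. Deviations of same-numbered WT and *fbn3*-/- libraries correlated at 0.16 and 0.02 at 1 dpf and at -0.03, -0.16, and -0.11 at 2 dpf. Those of the same genotype at the different stages correlated at 0.30 and -0.22 in WT and at 0.25, 0.14, and -0.11 in *fbn3*-/-. The highest values were between different numbers, all in higher-numbered WT libraries. Replicate 4 at 1 dpf and replicate 2 at 2 dpf correlated at 0.38, and replicates 5 and 3 at 0.39. The other higher-numbered WT pairs, 4 with 3 and 5 with 2, had -0.05 and 0.02. With the replicate block, 0 members were called between genotypes and in the interaction, 3 between stages in WT, and 4 in *fbn3*-/-. Among those in WT was *prss59.1* with a log2FC of 4.76 (edgeR FDR 0.00797), against 0.74 (FDR 0.520) without the block. Replicate number 2 is a lower-numbered WT library at 1 dpf (0 counts) and a higher-numbered one at 2 dpf (31 counts). Within the higher-numbered WT libraries (2 against 2), the *prss59.1* log2FC was 0.16. Within the lower-numbered ones (1 against 2), it was 3.12. The part of the sets in this call was not tested. With the block, the log2FC was 1.65, -1.63, and -6.39 for *prss59.1* (genotype at 1 dpf, stage in *fbn3*-/-, interaction). That of *pdx1* was 0.147 and -0.032 (genotype at 2 dpf, stage in WT), and that of *cpa1* was -0.091 (genotype at 2 dpf). Over all genes, the calls were 0 to 52 at 1 dpf (main 1), 13 to 192 at 2 dpf (main 42), and 0 to 32 for the interaction (main 1), with 13 at 2 dpf under the legacy method and 105 with the block. Genes of few reads set the limit: *prss59.1*, *prss59.2*, *ctrb1*, and *cpa1* never had more than 39 counts in a library.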
